A study of Homo sapiens with 6 samples.

Results

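The genes of complex III, complex IV and ATP synthase were examined in A549 cells, a human lung adenocarcinoma line, after knockdown of MRPL35. Members were all genes with a probe set annotated to exactly 1 symbol beginning with UQCR, with COX and a number, or with ATP5, together with CYC1, BCS1L, TTC19, SURF1, SCO1, SCO2, LYRM7 and COA3. These were 62 of the 18244 genes measured, covered by 150 probe sets, with 12 genes in complex III, 31 in complex IV and 19 in ATP synthase. Each gene takes its value from the probe set with the highest mean over the 6 arrays. The KD group (3 arrays) received a lentivirus with a short hairpin RNA against MRPL35, and the NC group (3 arrays) a lentivirus with a control hairpin. The characteristics name A549 for all 6 samples, but the source names of NC replicates 2 and 3 read A550 and A551, and calls without each of these arrays are given below. All samples were grown in RPMI-1640 with serum and antibiotics, and share the lentiviral delivery. The hairpin sequences, the number of hairpins and the time after infection are not given in the labels, nor whether the 3 samples of a group were separate cultures, so the p-values reflect only how these samples scatter, and that scatter could be technical. Since each group has 1 hairpin label, effects of MRPL35 loss and of the hairpin on other transcripts cannot be told apart.

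Complex III passes electrons from ubiquinol to cytochrome c, complex IV (cytochrome c oxidase) passes them from cytochrome c to oxygen, and ATP synthase uses the resulting proton gradient to make ATP. Each is built from many subunits made in the cytosol from nuclear genes and a few made by the mitochondrial ribosome from mitochondrial DNA, and complexes III and IV need dedicated assembly factors that insert heme, copper and iron-sulfur groups. MRPL35 is a protein of the large subunit of that ribosome, so the mitochondrially encoded core of these complexes depends on it for translation. The arrays measure transcript levels, not the proteins.

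The targeted gene MRPL35 gave log2 values of 6.49, 6.44 and 6.56 on the KD arrays, numbered 1 to 3, and of 8.16, 8.05 and 8.36 on the NC arrays, so every KD array lay below every NC array. This is a change of -1.69 with a standard error of 0.0962, which leaves 30.9% of the NC signal (limma, adjusted p = 3.77e-06). Its other 3 probe sets were lower too, with changes of -1.98 to -0.42. Arrays correlated across genes at 0.997 to 0.998 within KD, 0.994 to 0.998 within NC and 0.976 to 0.980 between the groups. All 10 listed A549 or lung epithelial markers were measured, and 9 of them lay above the median gene. Their mean level was 12.09 to 12.10 in KD and 11.57 to 11.66 in NC, and the part of this shift in the results was not tested. The 4 measured leukocyte markers had a mean level of 4.99 to 5.06 in KD and 4.77 to 5.03 in NC, and the 5 fibroblast or endothelial markers 4.97 to 5.21 in KD and 4.99 to 5.24 in NC. In RNA from bulk cultures, fewer cells of a kind and less RNA per cell cannot be told apart.

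More members passed as higher in KD than as lower. Of the 62 members 18 were higher in KD, 6 were lower and 38 did not pass the test (limma, adjusted p under 0.05 over all genes), against 17.6% higher and 15.9% lower among all genes. Members are mostly bright, and 56 of the 62 lay at or above the 40th percentile of gene means (5.41 on the log2 scale), where 26.1% of all genes were higher and 23.6% lower. The members' median log2 change was 0.11, against -0.018 over all genes. All KD arrays lay above all NC arrays for 32 members and below them for 11, where 23.2% and 21.5% of all genes did so. COX15 was the 1 member that reached a 2-fold change on its brightest probe set, a size that 5.36% of genes reached. Changes under 0.2 were seen in 33 members (53.2%), near the 54.7% of all genes. Among genes at or above the 40th percentile the share was 48.2% of members and 39.2% of all genes.

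Subunits and assembly factors are given apart. Of 35 widely expressed nuclear subunits 12 were higher and 0 lower, between -0.15 and 0.45 and with a median of 0.14 (log2). Of 16 assembly factors of complexes III and IV 5 were higher and 5 lower, between -1.01 and 0.58. The median absolute change was 0.35 for these factors and 0.15 for the subunits, against 0.28 for all genes at or above the 40th percentile. Of those genes 26.1% were higher and 23.6% lower, beside 31.2% and 31.2% of the factors and 34.3% and 0% of the subunits. The factors had mean levels of 6.25 to 10.59 and the subunits of 9.08 to 12.88, so role and level were not separated here. No test was made of the difference between these lists, which were drawn up with earlier results of these data known.

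**Figure D1:**
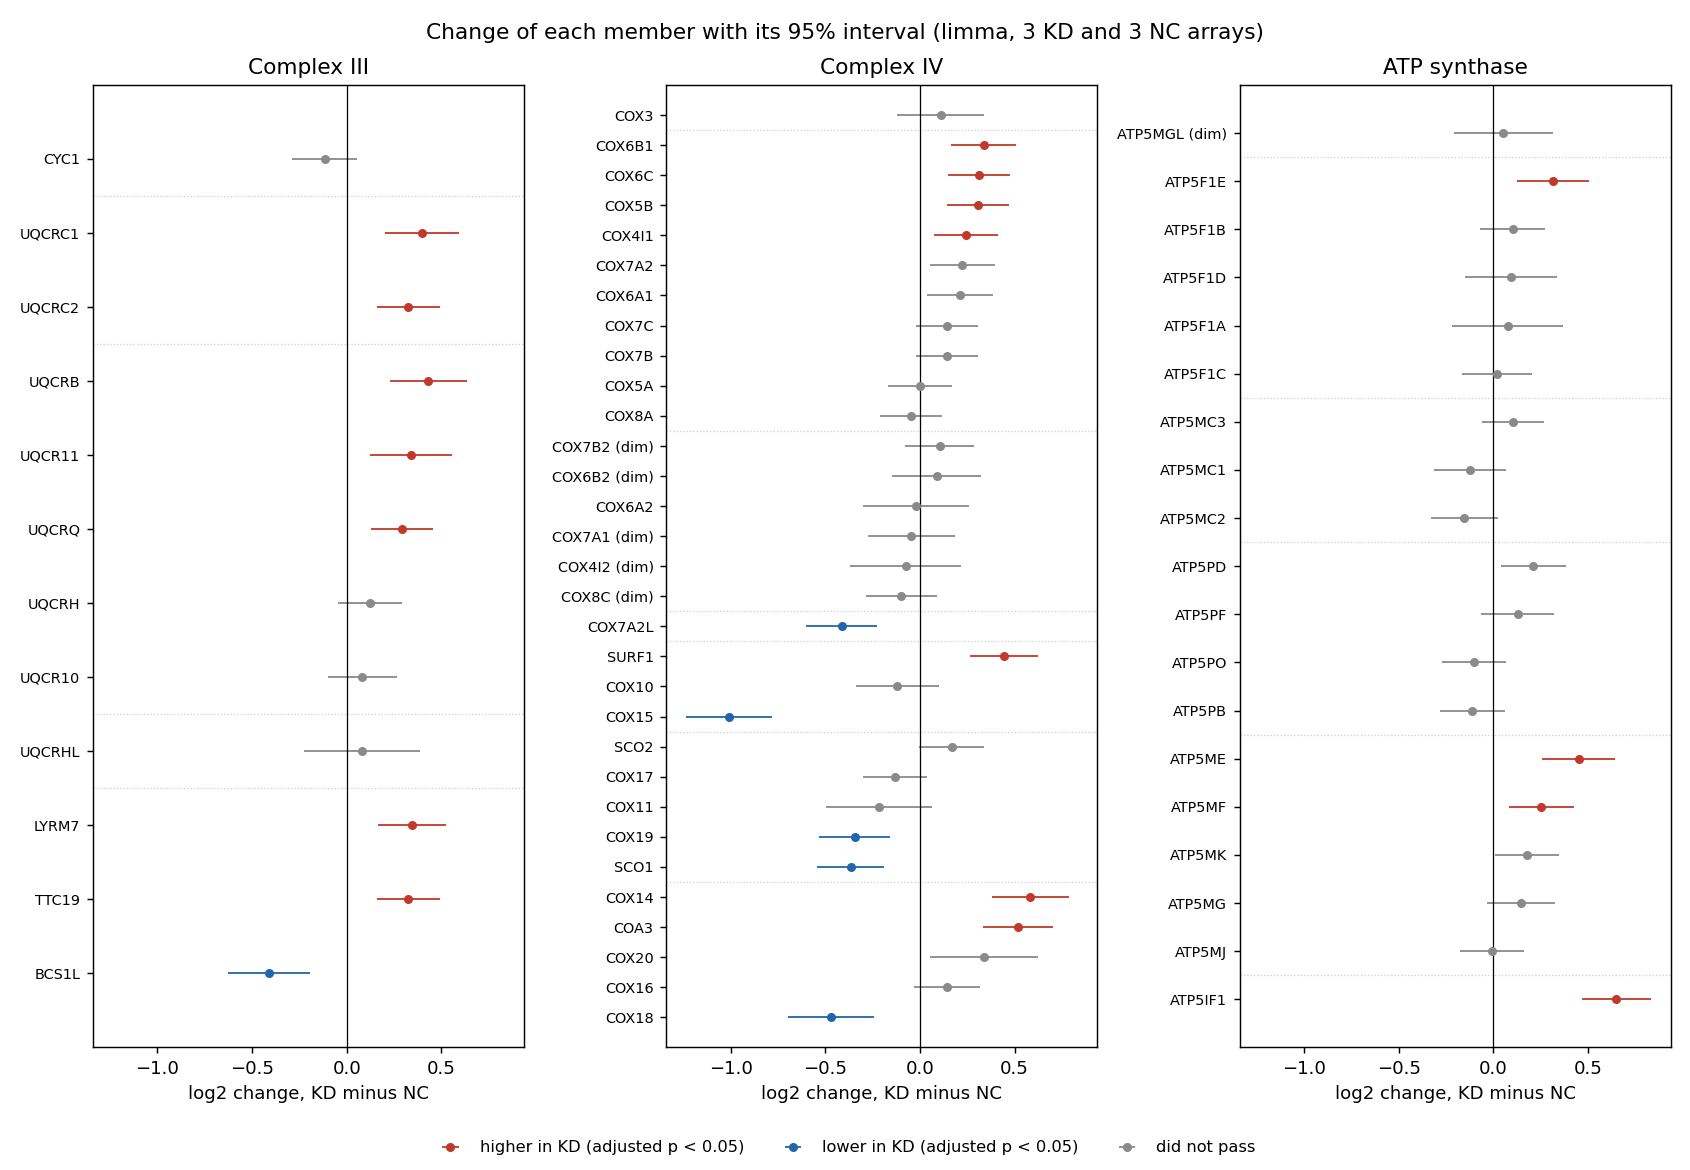
Log2 change of each member (KD minus NC, horizontal axis) with its 95% interval from limma, in 3 panels by complex. Genes are ordered by role, with dotted lines between roles, and coloured by the call at an adjusted p under 0.05. Nuclear subunits lie between -0.15 and 0.45, on both sides of 0, and the 12 called ones lie right of it. Assembly factors, and the called ones among them, lie on both sides, with COX15 at -1.01 farthest left.

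In complex III 7 of 12 members were higher (58.3%) and 1 was lower (8.33%), with a median change of 0.31. Of genes at or above the 40th percentile 26.1% were higher and 23.6% lower. With all probe sets of a gene averaged, 4 were higher and 1 lower. UQCRC1, one of the core proteins on the matrix side, read 11.67, 11.74 and 11.83 in KD against 11.24, 11.43 and 11.38 in NC. The groups did not overlap, and UQCRC1 rose 1.32-fold (log2 change 0.40 ± 0.086 standard error, limma adjusted p = 0.00598). Its partner core protein UQCRC2 rose by 0.32 and the small subunit UQCRQ by 0.29. In UQCRB, a small subunit that binds ubiquinone, the values were 9.22, 9.43 and 9.23 in KD against 8.93, 8.78 and 8.87 in NC, without overlap (0.43 ± 0.090, limma adjusted p = 0.00506). UQCRB rests on 1 of its 4 probe sets, and the other 3, dimmer, changed by -0.032 to 0.050. UQCR11, another small subunit, rose by 0.34 on its bright probe set (10.87, 11.00 and 10.86 in KD against 10.55, 10.44 and 10.72 in NC). Its second, dimmer probe set averaged 6.65 ± 0.11 in KD against 7.12 ± 0.11 in NC (SD, n = 3 each), without overlap, and was called lower (-0.47, limma adjusted p = 0.00449 over all probe sets), so the direction of UQCR11 depends on the probe set.

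CYC1, cytochrome c1, was the 1 catalytic subunit of complex III analysed here. It read 11.35, 11.40 and 11.46 in KD against 11.49, 11.52 and 11.55 in NC. All KD arrays lay below all NC arrays, but the change of -0.12 did not pass the test (95% interval -0.29 to 0.05), and its other 2 probe sets gave -0.12 and -0.11. The small subunits UQCRH (0.12, interval -0.05 to 0.29) and UQCR10 (0.083, interval -0.10 to 0.27) did not pass either. UQCRHL, an intronless copy of UQCRH, read 9.77, 9.43 and 9.54 in KD against 9.59, 9.23 and 9.68 in NC, with overlapping groups, and its probe set can hybridise to more than 1 transcript.

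The assembly factors of complex III went both ways although all 3 act on the Rieske iron-sulfur protein. BCS1L, the ATPase that carries the folded Rieske protein across the inner membrane, read 7.73, 7.74 and 7.85 in KD against 8.03, 8.19 and 8.33 in NC, with no overlap. BCS1L fell 1.33-fold (-0.41 ± 0.095, limma adjusted p = 0.00884), and its second probe set was also lower (-0.35). LYRM7, the chaperone that holds the Rieske protein before its insertion, rose by 0.35 (adjusted p = 0.00807), and its other 4 probe sets changed by 0.27 to 0.37, of which 1 passed. TTC19, which helps to clear Rieske protein fragments, rose by 0.33 (adjusted p = 0.00746), and its second probe set rose by 0.37.

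COX3 was the mitochondrially encoded member analysed here, and its transcript did not differ between the groups beyond their spread. COX3, a core subunit of complex IV, read 13.09, 13.05 and 12.95 in KD against 13.11, 12.78 and 12.88 in NC. The groups overlapped, and the change of 0.11 had a 95% interval of -0.12 to 0.34 (limma adjusted p = 0.486). Its second probe set changed by 0.075. A 2-fold change of this probe set's signal in either direction lies outside that interval, which covers only the scatter of these samples. The probe set used carries a suffix for possible hybridisation to several transcripts.

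Of 10 nuclear subunits of complex IV 4 rose (40%), 0 fell and 6 did not pass, with a median change of 0.22. For genes at or above the 40th percentile the shares were 26.1% higher and 23.6% lower. COX6B1, a subunit on the side where cytochrome c binds, read 13.03, 13.05 and 13.06 in KD against 12.66, 12.69 and 12.78 in NC. The groups did not overlap, and COX6B1 rose 1.26-fold (0.34 ± 0.075, limma adjusted p = 0.00714). COX6C (0.31), COX5B (0.31) and COX4I1 (0.24) also rose. COX7A2 (0.22, adjusted p = 0.0501) and COX6A1 (0.21, adjusted p = 0.0620) lay just outside the threshold with no overlap of the arrays, and of the other 4 probe sets of COX7A2 3 passed over all probe sets, at 0.25 to 0.31. COX7C and COX7B both changed by 0.14 without passing. COX5A (0.0012, interval -0.17 to 0.17) and COX8A (-0.047, interval -0.21 to 0.12) lay close to 0 and did not pass.

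The subunit forms known from particular tissues, such as COX6A2 and COX7A1 of heart and skeletal muscle, COX4I2 of lung and COX6B2 and COX8C of testis, gave no call. None of the 6 passed, where 33.5% of all genes passed in either direction. Their changes lay between -0.098 and 0.10, and their groups overlapped in 6 of 6. For 5 of them the mean level was below the 40th percentile of gene means. COX7B2 read 2.63, 2.64 and 2.63 in KD against 2.43, 2.63 and 2.52 in NC. Background was not measured per probe set, so these values do not show that the genes are expressed. One further dim probe set, of COX6B2, was called higher (0.35).

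COX7A2L, which resembles COX7A2 and joins complexes III and IV into supercomplexes, went the other way from the subunits. It read 9.73, 9.67 and 9.69 in KD against 10.18, 9.99 and 10.15 in NC, with no overlap. COX7A2L fell 1.33-fold (-0.41 ± 0.083, limma adjusted p = 0.00413), and its second probe set was lower as well (-0.48). The difference between COX7A2L and COX7A2 was not tested.

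COX15, the member with the largest change on the brightest probe sets, converts heme O to heme A, the heme form particular to cytochrome c oxidase. Its values were 7.91, 7.69 and 7.80 in KD against 8.81, 8.67 and 8.96 in NC, and every KD array lay below the lowest NC array. COX15 was 2.01-fold lower (-1.01 ± 0.10, 95% interval -1.24 to -0.78, limma adjusted p = 7.59e-05). Of its 7 probe sets 6 were called lower, with changes from -1.35 to -0.45, and the dimmest changed by -0.11 without passing. The brightest carries a suffix for possible hybridisation to several transcripts. With such probe sets left out, the brightest remaining one changed by -0.45, less than COX14 (0.58), and with all 7 averaged COX15 changed by -0.74. The 2-fold size was not reached under either, while the call was kept (limma adjusted p = 0.00292 and 3.16e-05). The dimmer probe sets without the suffix gave -0.58, -1.17, -1.35 and, for the dimmest, -0.11. COX10, which makes heme O in the step before, read between 6.09 and 6.29 in KD against 6.20 to 6.46 in NC and did not pass (-0.12, interval -0.34 to 0.10).

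SURF1, a factor of early complex IV assembly around heme A insertion, rose. It read 10.02, 10.05 and 10.14 in KD against 9.55, 9.65 and 9.68 in NC, with no overlap, a 1.36-fold rise (0.44 ± 0.079, limma adjusted p = 0.00211). SURF1 is covered by 1 probe set.

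The copper delivery factors of complex IV had 2 of 5 lower (40%) and 0 higher. Of genes at or above the 40th percentile 23.6% were lower and 26.1% higher. SCO1, which takes part in loading copper into COX2, read 8.82, 8.83 and 8.84 in KD against 9.20, 9.27 and 9.12 in NC. The KD arrays lay close together and below all NC arrays, and SCO1 fell 1.29-fold (-0.37 ± 0.077, limma adjusted p = 0.00539). Its paralog SCO2 changed by 0.17 and did not pass (interval -0.01 to 0.34). COX19, a partner of COX11, fell by 0.35 on its brightest probe set (adjusted p = 0.0107), while its other 3 probe sets changed by 0.11 to 0.20 without passing. COX11, which delivers copper to COX1, changed by -0.22 and did not pass. Of its other 5 probe sets 1 was called higher (0.30), and they ranged from -0.23 to 0.43. COX17, the copper chaperone that supplies the others, changed by -0.13 (interval -0.30 to 0.04).

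Factors that handle the newly made mitochondrial subunits included the strongest rises of complex IV. COX14 and COA3 bind COX1 as it is translated and couple its synthesis to assembly. COX14 read 10.84, 10.90 and 10.89 in KD against 10.33, 10.15 and 10.41 in NC. It rose by 0.58 on the log2 scale (± 0.089, limma adjusted p = 0.000948) on its single probe set. COA3 read 10.50, 10.57 and 10.58 in KD against 9.99, 9.97 and 10.14 in NC. It rose 1.43-fold (0.52 ± 0.081, adjusted p = 0.00105), while its dim second probe set changed by 0.097 and did not pass. In both genes every KD array lay above every NC array.

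COX18, the insertase for the tail of COX2, fell in contrast. Its values were 7.12, 7.03 and 7.17 in KD against 7.50, 7.47 and 7.77 in NC, a 1.39-fold lower level (-0.47 ± 0.10, limma adjusted p = 0.00548). Its other 2 probe sets, both dimmer, changed by -0.18 and -0.10 and did not pass. COX20, a chaperone of COX2, changed by 0.34 but did not pass (adjusted p = 0.0692), with NC replicate 2 at 8.60 apart from 9.09 and 8.97 in the other two NC arrays. COX16, a factor for COX2, changed by 0.14 on its bright probe set and did not pass. The second COX16 probe set read 6.22, 5.70 and 5.52 in KD against 7.77, 7.51 and 7.66 in NC, a change of -1.83 (limma adjusted p = 5.1e-05 over all probe sets). The value of COX16 therefore differs by probe set more than that of any other member.

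**Figure D2:**
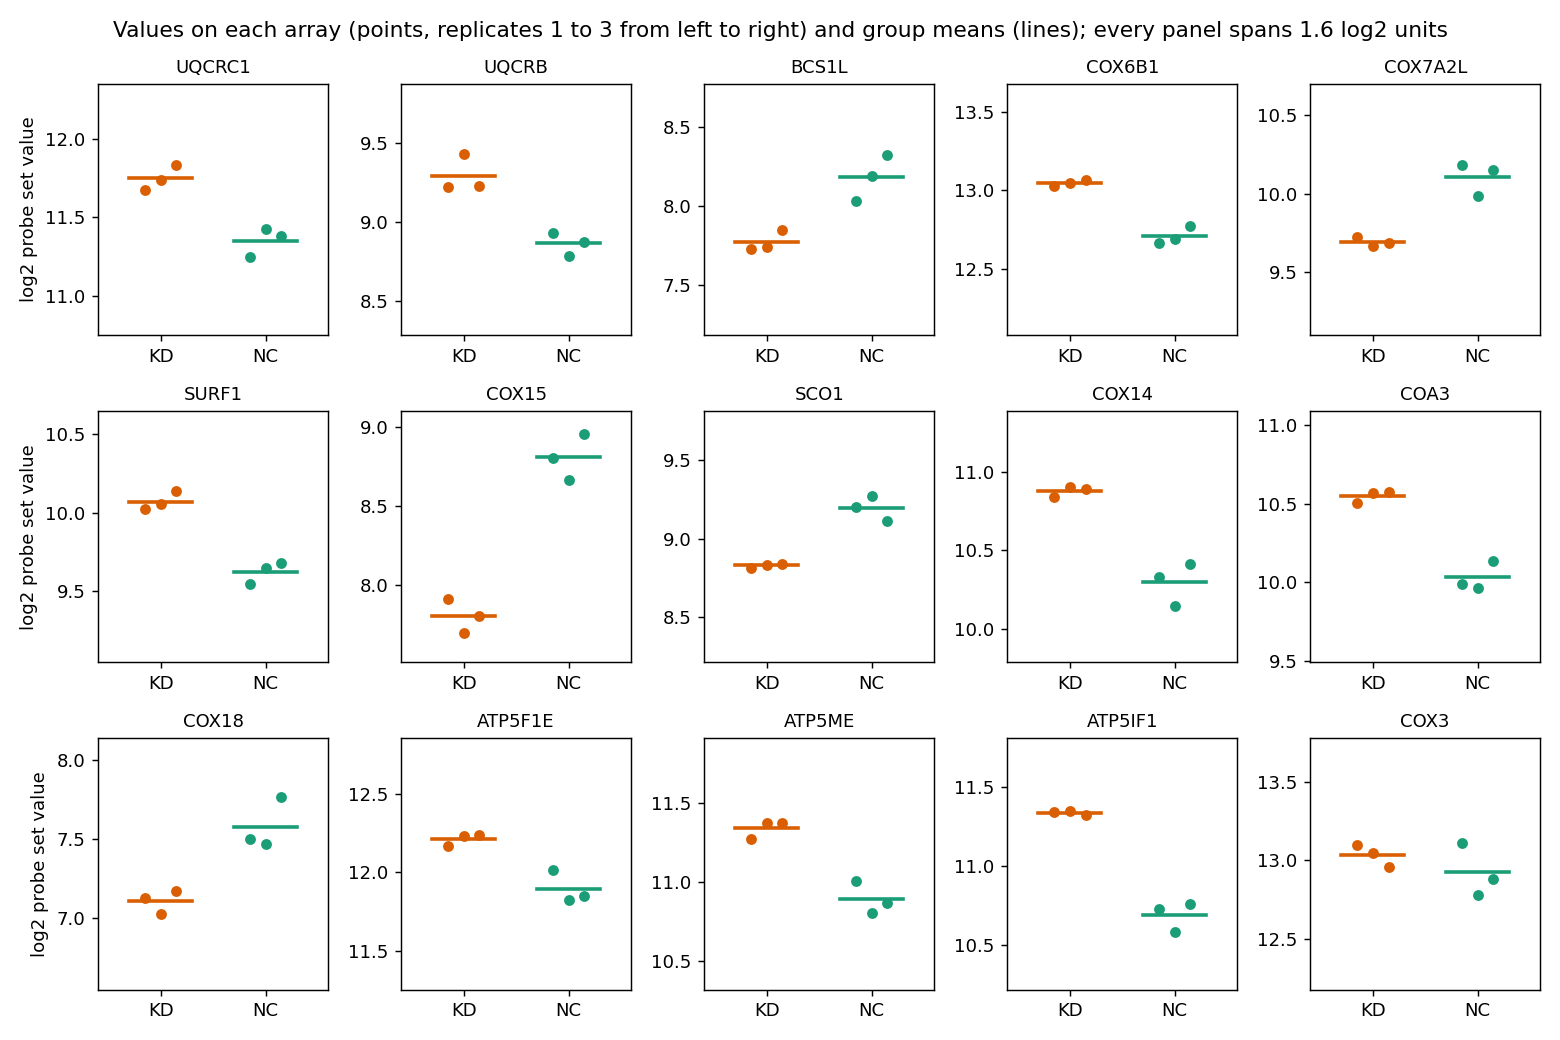
Log2 values of 15 members on each array (points), with KD left of NC and the group mean as a line, in panels that each span 1.6 log2 units. Apart from COX3, the members shown were picked among those called at an adjusted p under 0.05. Their lack of overlap between KD and NC is therefore no separate result. Over all genes 23.2% had all KD arrays above all NC arrays and 21.5% below. The widest gap shown is that of COX15, where the KD arrays read 7.69 to 7.91 and the NC arrays 8.67 to 8.96.

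ATP synthase had 4 of 19 members higher (21.1%), 0 lower and a median change of 0.10. The share higher was 17.6% of all genes and 26.1% of genes at or above the 40th percentile, and the share lower 15.9% and 23.6%. The count of higher members was 2 when KD replicate 2, KD replicate 3 or NC replicate 3 was left out. Its largest rise was in ATP5IF1, the inhibitor that stops the enzyme from running backwards and hydrolysing ATP. ATP5IF1 read 11.34, 11.35 and 11.32 in KD against 10.73, 10.58 and 10.76 in NC. The KD arrays lay close together, and the groups did not overlap. The gene rose 1.57-fold (0.65 ± 0.080, limma adjusted p = 0.000262), and 2 of its other 3 probe sets were also called higher, at 0.66 and 0.34, with the dim one at 0.15 not passing. All 4 probe sets carry a suffix for possible hybridisation to several transcripts.

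Among the small membrane subunits 2 of 5 rose (40%) and 0 fell, beside 26.1% higher and 23.6% lower among genes at or above the 40th percentile. ATP5ME, subunit e, which sits where 2 synthases pair, read 11.27, 11.38 and 11.38 in KD against 11.01, 10.80 and 10.86 in NC. It rose 1.37-fold (0.45 ± 0.085, limma adjusted p = 0.00302), and its second probe set rose by 0.50. ATP5MF, subunit f, rose by 0.25 (limma adjusted p = 0.0298). Of its other 4 probe sets 2 passed, a bright one at 0.31 and a dim one (mean level 3.95) at 0.30. The 2 others, both bright, changed by 0.20 and 0.046. A brighter probe set shared with PTCD1, left out by the rule, changed by 0.097 without passing. ATP5MK (0.18) and ATP5MG (0.15) did not pass, although a dim probe set of ATP5MK was called higher (0.52). ATP5MJ did not pass on its brightest probe set (-0.0078, interval -0.18 to 0.16), but 3 of its other 6 probe sets were called lower, at -0.27, -0.32 and -0.58.

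Of the 5 subunits of the catalytic head 1 was called higher (20%) and 0 lower, beside 26.1% and 23.6% of genes at or above the 40th percentile. ATP5F1E, the epsilon subunit of the central stalk, read 12.17, 12.23 and 12.24 in KD against 12.02, 11.82 and 11.85 in NC, with no overlap. It rose 1.24-fold (0.32 ± 0.083, limma adjusted p = 0.0168), a call that was lost on leaving out KD replicate 2 (adjusted p = 0.0649), KD replicate 3 (adjusted p = 0.0698) or NC replicate 3 (adjusted p = 0.0527). The catalytic subunit ATP5F1B (0.10), its partner ATP5F1A (0.077), ATP5F1D (0.095) and ATP5F1C (0.019) did not pass. Their intervals together ran from -0.22 to 0.37, and 1 dimmer probe set of ATP5F1C was called higher (0.34).

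The membrane rotor and the peripheral stalk had 0 of 7 genes past the threshold, which 33.5% of all genes passed in either direction. At or above the 40th percentile 26.1% of genes were higher and 23.6% lower. The c subunit of the rotor is made from 3 genes that encode the same mature protein. Of these, ATP5MC2 read 11.10, 11.19 and 11.21 in KD against 11.27, 11.31 and 11.37 in NC, without overlap, a change of -0.15 that did not pass (adjusted p = 0.181), ATP5MC1 changed by -0.12 and ATP5MC3 by 0.10. In the stalk, ATP5PD read 11.04, 11.13 and 11.09 in KD against 10.87, 10.82 and 10.92 in NC, and its change of 0.21 did not pass (adjusted p = 0.0594). ATP5PF changed by 0.13, ATP5PO by -0.10 and ATP5PB by -0.11. ATP5MGL, a copy of ATP5MG, was dim and read 3.51, 3.57 and 3.52 in KD against 3.23, 3.54 and 3.67 in NC.

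Averaged over members, all 3 KD arrays lay above all 3 NC arrays for the subunits of each complex. The mean deviation from the NC mean was 0.21, 0.26 and 0.25 for complex III subunits in KD, against -0.033, -0.0085 and 0.042 in NC, in the order of the replicate numbers. For nuclear complex IV subunits it was 0.16, 0.21 and 0.19 in KD, against -0.0055, -0.0033 and 0.0088 in NC. For the 17 ATP synthase subunits, without ATP5IF1 and ATP5MGL, it was 0.061, 0.11 and 0.11 in KD, against 0.028, -0.048 and 0.020 in NC. For complex IV assembly factors it was -0.029, -0.030 and -0.047 in KD, within the NC values of 0.011, -0.080 and 0.070. Over all genes the KD arrays lay at -0.022, -0.0020 and -0.011.

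Of the 24 calls 6 were lost when at least 1 single array was left out. Whether the array itself or the smaller number of arrays cost a call was not tested. UQCR11 and COX4I1 did not pass without any 1 of KD replicates 1, 2 and 3 or NC replicate 1, and ATP5MF did not pass without any array but NC replicate 2. COX19 and UQCRQ did not pass without KD replicate 3, and ATP5F1E is described above. Without NC replicate 2, the array with source name A550, all 24 calls remained and COX11 and COX6A1 were added. Without NC replicate 3, the array with source name A551, 22 remained. Over all alternatives that measured them, 17 of the 24 calls were kept.

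Of the 62 members 40 have several probe sets, and in 1 of them, UQCR11, probe sets were called in opposite directions. Among the 18 called members with several probe sets, 12 had another one called the same way. The 6 others were UQCR11, UQCRB, UQCRQ, COA3, COX18 and COX19, whose call rests on the brightest probe set alone. For UQCRQ the other 2 probe sets, with mean levels of 5.82 and 3.17, changed by -0.17 and -0.014.

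**Figure D3:**
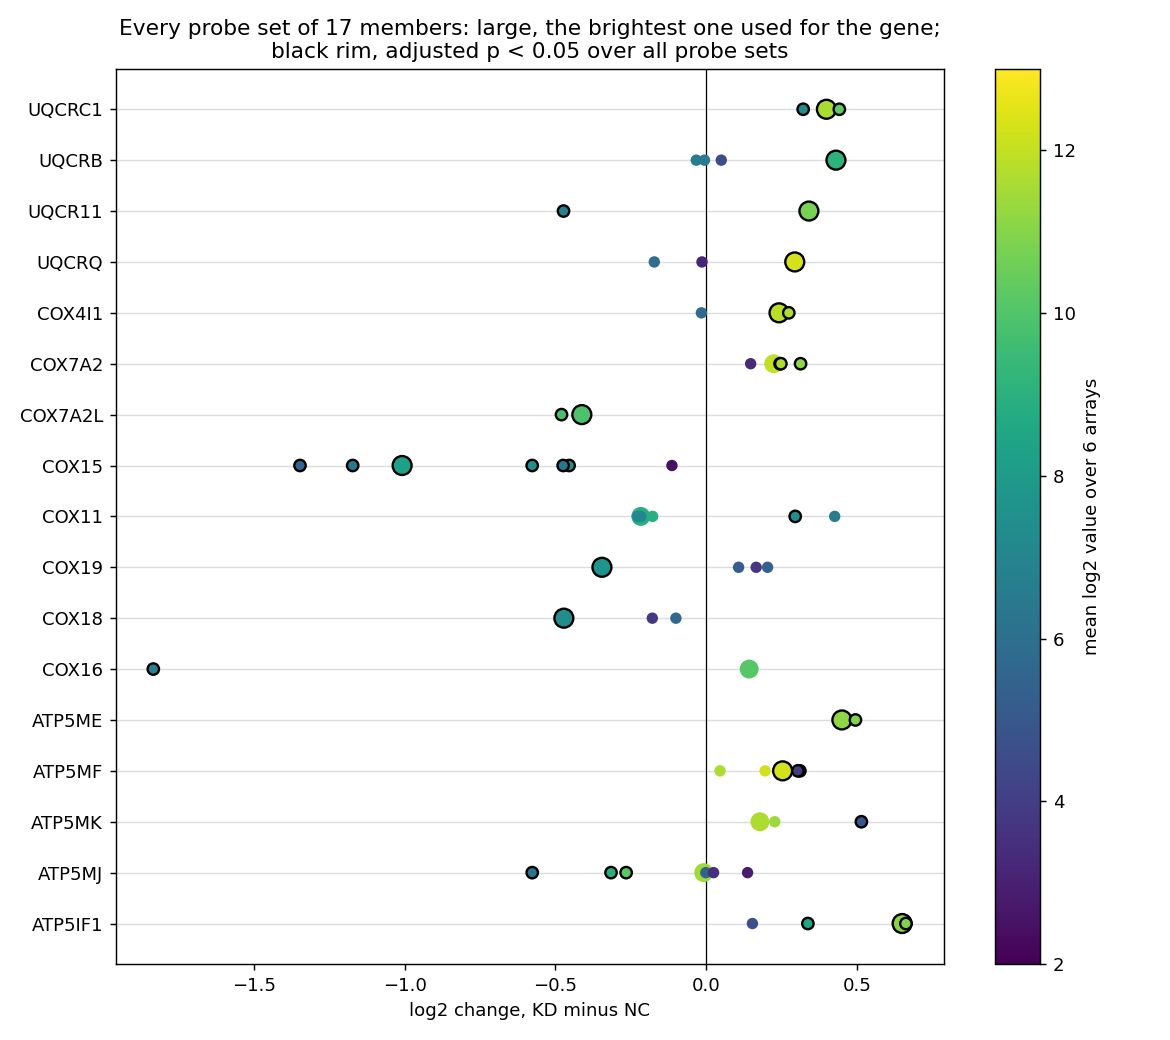
Log2 change (KD minus NC, horizontal axis) of every probe set of 17 members, coloured by mean log2 level. The large point is the brightest probe set, used for the gene, and a black rim marks an adjusted p under 0.05 over all probe sets. COX15 and ATP5IF1 are among those that keep 1 direction over their probe sets. UQCR11, COX16, UQCRB, UQCRQ, COX4I1, COX11, COX19 and ATP5MJ have probe sets on both sides of 0.

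Many genes of oxidative phosphorylation start from short GC-rich promoters shared with a neighbour on the other strand, and are known targets of NRF1, of the ETS factor GABPA and of YY1. Promoters of 48 members were found in RefSeq's table of build GRCh38.p14 (250 bases before and 50 after the first listed start), and 4 motifs were searched on both strands. The NRF1 motif, of 10 bases, was in 10 of the 48 (20.8%), against 6.3% of all 27305 promoters. The ETS motif CCGGAAG was in 19 (39.6%), against 10.7% of all promoters. The YY1 motif AANATGGC was in 11 (22.9%), against 6.8% of all, and the E-box CACGTG in 5 (10.4%), against 7.4% of all. By call, the ETS motif was in 8 of 15 promoters of members higher in KD, 2 of 6 lower in KD and 9 of 27 that did not pass, and the NRF1 motif in 3, 1 and 6 of them. These are matches of letters, not sites shown to be bound.

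The bases before the start are shown for the largest fall and rise in complexes III and IV and the largest rise in ATP synthase, with motif matches in capitals. UQCRC1 stands for complex III after UQCRB, whose promoter is not shown. For BCS1L and COX15 the stretch ends at the start of the gene on the other strand, ZNF142 and CUTC, so it is the whole stretch between the 2 starts. The stretches are BCS1L at chr2:218659624-218659682 on the plus strand, UQCRC1 at chr3:48609647-48609896 on the minus strand, COX15 at chr10:99732128-99732233 on the minus strand, COX14 at chr12:50111986-50112235 on the plus strand and ATP5IF1 at chr1:28235874-28236123 on the plus strand (GRCh38.p14). The capitals mark an NRF1 match in UQCRC1, an ETS match in COX15 and an E-box in COX14.
BCS1L: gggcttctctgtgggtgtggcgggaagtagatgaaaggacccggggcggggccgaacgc
UQCRC1: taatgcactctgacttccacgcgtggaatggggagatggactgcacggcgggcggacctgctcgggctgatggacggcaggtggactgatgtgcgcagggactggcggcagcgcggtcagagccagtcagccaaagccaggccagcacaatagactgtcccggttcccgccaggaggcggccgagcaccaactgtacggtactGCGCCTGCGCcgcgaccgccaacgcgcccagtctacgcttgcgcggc
COX15: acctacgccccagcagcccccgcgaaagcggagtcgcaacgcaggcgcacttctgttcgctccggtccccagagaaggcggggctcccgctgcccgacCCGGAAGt
COX14: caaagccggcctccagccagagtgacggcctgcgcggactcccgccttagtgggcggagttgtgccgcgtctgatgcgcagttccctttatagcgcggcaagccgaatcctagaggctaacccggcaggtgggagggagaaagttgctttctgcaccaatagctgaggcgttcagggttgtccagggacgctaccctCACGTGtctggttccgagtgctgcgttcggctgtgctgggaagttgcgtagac
ATP5IF1: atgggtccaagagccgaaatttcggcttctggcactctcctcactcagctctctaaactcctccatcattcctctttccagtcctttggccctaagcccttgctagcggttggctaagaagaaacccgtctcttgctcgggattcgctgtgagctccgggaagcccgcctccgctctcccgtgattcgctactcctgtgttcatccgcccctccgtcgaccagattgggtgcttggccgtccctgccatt

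A gene on the other strand starts within 1000 bases of 17 of the 48 members, and 16 of these neighbours were measured. Of the 16, 2 were higher in KD, 10 lower and 4 did not pass, beside 17.6% higher and 15.9% lower among all genes and 26.1% and 23.6% among genes at or above the 40th percentile of mean level. COX15 and CUTC, a gene named for copper handling, start 107 bases apart, and both fell. CUTC read 7.99, 8.10 and 7.89 in KD against 8.99, 8.58 and 8.68 in NC, with no overlap (-0.76 ± 0.12, limma adjusted p = 0.000949). SCO1 and ADPRM, 61 bases apart, also fell together (-0.37 and -0.47). TTC19 and ZSWIM7 rose together (0.33 and 0.38), as did ATP5ME and MYL5 (0.45 and 1.59). COX4I1 rose while EMC8 beside it fell (0.24 and -0.26). In 7 further pairs the neighbour fell and the member did not pass. One of these is ATP5PF (0.13) and GABPA, the ETS factor named above, which read 6.33, 6.07 and 5.86 in KD against 6.87, 6.50 and 6.65 in NC and fell by 0.59 on the log2 scale (limma adjusted p = 0.0094). These neighbours were looked up after the members' values were known. The share of all promoters with such a neighbour is not given here, and each neighbour is read from its brightest probe set alone.

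**Figure D4:**
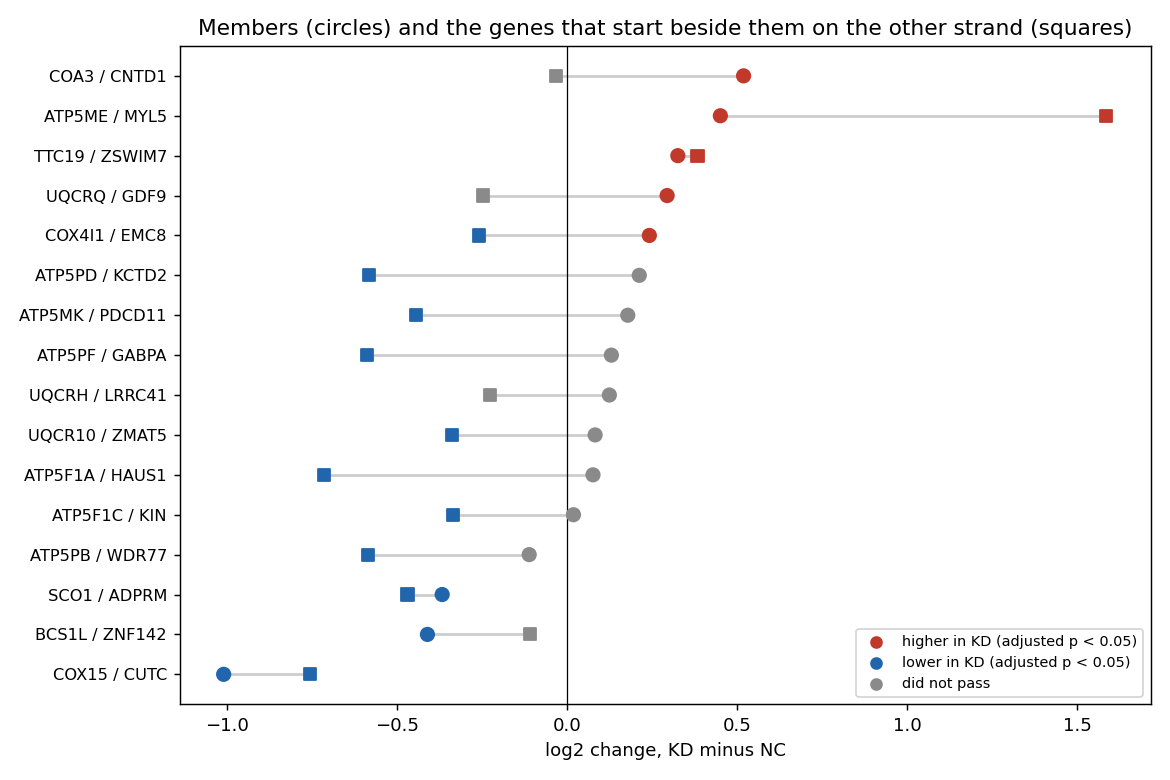
Log2 change (KD minus NC, horizontal axis) of 16 members (circles) and of the gene that starts beside each on the other strand (squares), coloured by call. The pairs COX15 with CUTC, SCO1 with ADPRM, TTC19 with ZSWIM7 and ATP5ME with MYL5 were called the same way, and COX4I1 with EMC8 opposite ways.

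Other genes of the respiratory chain give the setting for these values. Beside them stand 17.6% higher and 15.9% lower among all genes, and 26.1% and 23.6% among genes at or above the 40th percentile. Of 36 complex I subunits 14 were higher (38.9%) and 2 lower (5.56%), with a median of 0.19, led by NDUFA13 (0.65), NDUFB2 (0.52) and NDUFS8 (0.49). Of 3 complex II subunits SDHA rose (0.41), SDHD fell (-2.90) and SDHC did not pass (0.036). The SDHD change was the largest fall of all 18244 genes, larger than that of the targeted MRPL35 (-1.69), and its cause was not tested. A list of 32 further assembly factors and partners of complexes III, IV and ATP synthase had 8 higher (25%) and 9 lower (28.1%), with a median of -0.057. The complex III assembly factors UQCC3 (-0.76) and UQCC4 (-0.58) fell, and ATPAF1, which assembles the F1 head, rose (0.59). The V-type ATPase, a related proton pump of lysosomes, had 9 of 15 subunits higher (60%) and 3 lower (20%), among them ATP6V1G1 (0.64), ATP6V1A (-0.74) and ATP6V0E1 (-1.35). All these comparisons use the same 6 arrays.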

How the data were processed

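The members and gene lists were chosen with earlier results of these data known. Total RNA was extracted with Trizol and labelled as biotinylated cRNA for Affymetrix arrays, per the labels' protocols. The values are the authors' deposited log2 probe set values for 49395 probe sets. The log base was read from their range, and the summarisation and normalization are not given in the sources used here. Scanner files were not used here.

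Gene symbols come from GEO's annotation of the platform, and RefSeq gene identifiers changed 0 symbols. Each gene was represented by its brightest probe set with 1 symbol, and 7 probe sets that carry a symbol of the rule beside another symbol were left out, 1 of them naming ATP6 and COX1. The test for each gene was limma's moderated one (version 3.58.1, R 4.3.3; lmFit, then eBayes; two-sided; group as the only term; 4 residual and 4.67 prior degrees of freedom), with Benjamini-Hochberg adjustment over 18244 genes and a threshold of 0.05. Probe sets were adjusted over all non-control probe sets. The fit was tested on simulated data.

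Values on every array are given for MRPL35, for mitochondrially encoded members, for members with an adjusted p under 0.05 and an absolute log2 change of at least 0.4, and for the smallest p in any other role. Values given for further genes were chosen after they were seen. From the other lists up to 3 genes with the smallest adjusted p are named. Same-numbered arrays deviated from their group means with correlations of 0.25, 0.26 and -0.096, so the numbers were not taken as pairs. Alternatives were quantile normalization, median centring, trend and robust eBayes, array weights, a replicate block, averaging all probe sets per gene, leaving out x_at and s_at probe sets, leaving out dim genes, and leaving out each array. Figures were drawn with matplotlib 3.10.9.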

Additional observations from a re-analysis of the deposited data

How the results depend on the processing

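Of the 24 called members 17 passed in every alternative that measured them, and COX15, ATP5IF1, COX14 and BCS1L were among them. Quantile normalization, trend and robust eBayes, array weights and leaving out dim genes kept all 24 calls, and median centring kept 23. With trend and robust eBayes 12 complex IV members and 7 ATP synthase members were higher, against 7 and 4, and 1 ATP synthase member, ATP5MC2, was lower, against 0. With all probe sets of a gene averaged, 4 complex III members were higher, against 7, and 19 of the 24 calls were kept. Kept calls included COX15 at -0.74, COA3 at 0.31, COX18 at -0.25 and COX6C at 0.19. The 5 lost were COX19, COX4I1, UQCR11, UQCRB and UQCRQ. Of the lost calls 2 changed sign, UQCR11 to -0.066 and COX19 to 0.033. Without x_at and s_at probe sets, each gene took its brightest remaining one. UQCRB then changed by -0.0053 (limma adjusted p = 0.989) and COX4I1 by -0.016, and both lost their calls. COX15 changed by -0.45, 1 ATP synthase member was lower, and ATP5F1E and ATP5IF1 were not measured. ATP5PD (0.21) passed under 5 alternatives. Leaving out 1 array at a time gave 2 to 4 ATP synthase members higher. The causes of these shifts were not tested. With the replicate block, which the numbers alone do not justify, 17 members were higher and 6 lower, and ATP5MF lost its call. Pseudocounts were not run, since the values are already on a log scale. With 3 arrays a group and no measure of background, small changes and dim genes are poorly resolved.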
